A study of Mus musculus with 8 samples.

Results

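The comparison set livers injured with TAA, commonly short for thioacetamide, against livers injured with carbon tetrachloride (CCl4) in male mice, after 1 week of observation. Of the 8 one-colour expression arrays of the series, the 4 labelled 1w were its members, chosen by their labels: CCl4 with a negative control nucleotide (NC), CCl4 with miR-29a, TAA with NC and TAA with miR-29a. All 8 mouse liver samples had 5 weeks of fibrosis induction before observation, and the oligonucleotide was given every 3 days of the 1 or 2 weeks that followed. Each combination of agent, week and oligonucleotide had 1 array, with no untreated liver on any. The labels give TAA as an abbreviation alone, and leave doses, strain and age unstated, as well as whether 1 mouse or several gave a sample. TAA was therefore compared with CCl4 in both matched pairs, once in the NC pair and once in the miR-29a pair, and a result is described below by its value in each pair.

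Both agents are classical hepatotoxins that hepatocytes convert to reactive products through cytochrome P450, Cyp2e1 above all, so that injury falls mainly on the hepatocytes around the central vein. Repeated injury activates stellate cells, which lay down collagen, and surviving hepatocytes divide and lower many of their metabolic genes while they do so. Growth hormone acts on hepatocytes through the transcription factor STAT5, which induces feedback genes such as Cish and represses Bcl6, and this axis sets much of the sex-biased liver programme.

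The oligonucleotide that separates the pairs carries the name of a microRNA that binds messenger RNAs through its seed. The mature mouse sequence in RefSeq (GRCm38.p6, chr6:31062673-31062694, minus strand) is shown because 1 pair of arrays received miR-29a. Bases 2 to 8, the seed, are in capitals; the labels do not give the sequence of the injected oligonucleotide.
mmu-miR-29a-3p: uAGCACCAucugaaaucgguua

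Levels are log2 processed signals minus the 75th percentile of the array, and differences are TAA minus CCl4 on that log2 scale. With no untreated liver, rose and fell below mean higher and lower in TAA than in CCl4. The share of spots well above background ran from 43.9% to 46.2% over the 4 arrays. A probe was kept if 2 or more of the 4 arrays had it above background, and the brightest probe per gene name was used, leaving 18721 features, of which 12944 are protein coding. The 2 CCl4 arrays resembled each other (r = 0.991 across features, 582 features 2-fold apart) more than the 2 TAA arrays did (r = 0.971, 1936 features 2-fold apart). Correlations between a TAA and a CCl4 array of 1 week lay between 0.947 and 0.951. Hepatocyte markers such as Alb were bright on all 4 arrays: the log2 of their mean signal was 9.93, 10.05, 10.06 and 10.18 for CCl4 NC, CCl4 miR-29a, TAA NC and TAA miR-29a. All 8 arrays lay on 1 slide and were read in 1 scan, but the header's first position number was 1 for all CCl4 arrays and 2 for all TAA arrays, so slide position and agent cannot be told apart.

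The difference depended on brightness. With the features split into 10 classes of equal size by level, the median TAA minus CCl4 difference was 0.28 log2 in the dimmest class and −0.37 in the brightest. At 2 weeks the same classes had medians of 0.09 and −0.22. Features of long intergenic RNA regions, most of them dim, had medians of 0.15 in the NC pair and 0.31 in the miR-29a pair, against −0.27 and −0.18 for protein-coding genes. Over all features the median was −0.21 in the NC pair and −0.11 in the miR-29a pair. The part of this slope in single genes was not tested, and for the bright metabolic lists the −0.37 of the brightest class is repeated beside the counts.

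**Figure D1:**
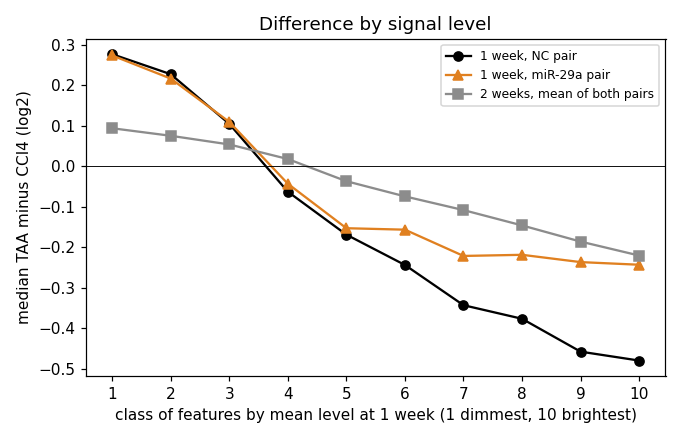
Median TAA minus CCl4 difference (log2) in each of 10 equal classes of the 18721 features ordered by mean level at 1 week, for the NC pair, the miR-29a pair and the mean of both pairs at 2 weeks. Both 1-week lines fall from above 0 in the dimmest class to below 0 in the brightest, and the 2-week line is flatter.

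By the limma fit over all 8 arrays, 2374 features (12.7%) were called higher and 4270 (22.8%) lower in TAA at a Benjamini-Hochberg adjusted p under 0.05. All 6644 called features (35.5% of all) had the same sign in both pairs. The fit fixed this in advance, since opposite signs in the pairs give a spread too large for a call. A difference of at least 2-fold in both pairs was seen for 1259 features higher in TAA (6.73%) and 1185 lower (6.33%). The matched differences of the pairs, which share no array, correlated across features with r = 0.69; features are not independent replicates. Both TAA levels lay above both CCl4 levels for 25.7% of features and below both for 42.6%, and 30.1% were higher and 47.4% lower in both pairs. A further 4225 features had opposite signs in the pairs. The call counts depend on the CCl4 arrays: without CCl4 NC the fit called 1263 higher and 1647 lower, and without CCl4 miR-29a 847 higher and 887 lower. Without TAA NC they were 2268 and 3321, and the 4 arrays of 1 week alone gave 1251 and 1264. In the main scaling and 4 others together, 1109 features were called higher and 2244 lower, and 1050 and 1095 of these were also called in the fit of the 4 arrays alone. The direction of many calls depends on the reference level: with the array median in place of the 75th percentile, which moved the median of all features from −0.16 to −0.75, 1193 features were called higher and 10698 lower, and with centring within bins of level, added after seeing the data, 51.7% of calls were higher, against 35.7%. Both CCl4 arrays of 1 week lay at least 2-fold below all 6 other arrays for 318 features and above them for 46, whereas both TAA arrays of 1 week lay at least 2-fold above the 6 others for 112 features and below them for 60. The CCl4 arrays of 1 week thus stood apart from the 2-week arrays as well. P-values measure the spread between these samples, which may be technical.

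**Figure D2:**
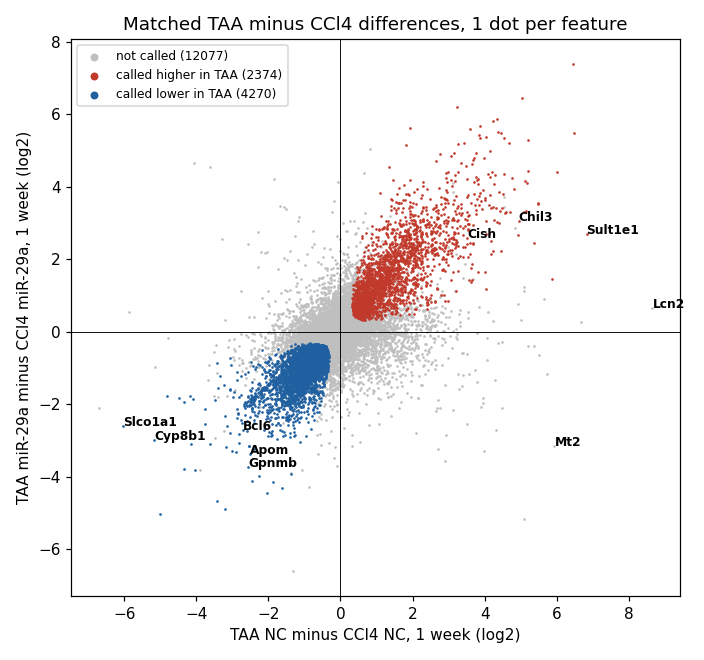
Each dot is 1 of 18721 features, with its TAA minus CCl4 difference (log2) in the NC pair on the horizontal axis and in the miR-29a pair on the vertical axis; red and blue mark the 2374 features called higher and the 4270 called lower. Cish, Bcl6, Slco1a1, Cyp8b1, Apom and Gpnmb lie far from 0 in both pairs, whereas Lcn2 and Mt2 are high in the NC pair and not in the miR-29a pair.

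Some features were above background on the TAA arrays and not on the CCl4 arrays, or the reverse. Such a feature passed the filter only through the agent in which it is high and so had to differ. Its values here are a description, with a bound in place of a fold and no p. Such features stayed among those tested, so the shares of all features called and the list counts below include them. Gabra4, a GABA receptor subunit, had levels of −5.49 and −5.42 in CCl4 (NC, miR-29a) and −0.81 and −0.21 in TAA. Both TAA values were far above both CCl4 values, which were not well above background, so the difference is a bound of at least 7.97-fold. Cysltr2, a leukotriene receptor, read −5.62 and −5.52 in CCl4 (NC, miR-29a) and 0.40 and −1.12 in TAA (at least 8.84-fold). Catsper1, a sperm calcium channel, read −5.75 and −5.67 in CCl4 (NC, miR-29a) and −1.87 and −1.83 in TAA (at least 3.15-fold). The same pattern was seen for Olfr71, an olfactory receptor, Dppa3, a germ-cell gene, Mastl, a mitotic kinase, Rad54l, a DNA repair helicase, and Epb42, a red-cell membrane protein. In all, 369 features were above background on both TAA arrays and on neither CCl4 array, 98 of them protein coding, and 631 showed the reverse, 363 of them protein coding. Of the first set, 274 differed by 2 log2 units or more. Of these, 80 were below background on all 4 arrays of 2 weeks, and 95 were above it on all 4, so that for the latter only the CCl4 arrays of 1 week lacked signal. Among those 274, 117 had another probe for the same gene, and in 47 that probe also differed by at least 2-fold in the same direction. In the reverse set of 631, another probe did so for 21 of 220. These sets were taken after their values were seen.

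On the lower side were metabolic and matrix genes. Acot5, a peroxisomal acyl-CoA thioesterase, read 0.22 and 0.62 in CCl4 (NC, miR-29a) and −3.92 and −2.47 in TAA, where TAA was above background on 1 of 2 arrays (mean difference −3.62 ± 0.49, SE; adjusted p = 0.00654). Dpt, the matrix protein dermatopontin, read −0.51 and −1.07 in CCl4 (NC, miR-29a) and −3.31 and −3.88 in TAA and was below background in TAA (at least 5.99-fold lower). Ube2cbp was above background in CCl4 and not in TAA, and was at least 5.77-fold lower in TAA.

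Ranking only genes above background on all 4 arrays, a rule added after the data were seen, brought out genes measured on both sides. Cyp21a1, the steroid 21-hydroxylase of the adrenal cortex, read −0.23 and −0.49 in CCl4 (NC, miR-29a) and 4.94 and 3.61 in TAA (mean 4.63 ± 0.37, adjusted p = 0.00396). Its TAA levels at 2 weeks were 1.98 and 2.19 against 1.45 and 1.15 for CCl4. Chil3, a chitinase-like protein of macrophages and neutrophils, read −3.01 and −3.30 in CCl4 (NC, miR-29a) and 1.94 and −0.23 in TAA (16.1-fold, adjusted p = 0.00523). Slc17a5, a lysosomal sialic acid exporter, rose by 2.65 ± 0.36 and Hexim2, an inhibitor of transcription elongation, by 2.46 ± 0.33, each with 1 other probe going the other way. On the 4 arrays of 2 weeks Slc17a5 read from 2.20 to 3.18, above both CCl4 and below both TAA arrays of 1 week. Among those that fell, Il4ra, the interleukin 4 receptor alpha chain, read 1.24 and 1.44 in CCl4 (NC, miR-29a) and −1.07 and −0.88 in TAA (mean −2.31 ± 0.16), but another probe of the gene went the other way. Ndrg1, a stress- and hypoxia-regulated gene, read 3.73 and 2.91 in CCl4 (NC, miR-29a) and 1.55 and 0.68 in TAA (mean −2.20 ± 0.14, adjusted p = 0.00346). The sulfotransferase Sult1c2 and Rdh1, a retinol dehydrogenase, fell, at −2.17 ± 0.16 and −2.43 ± 0.19.

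**Figure D3:**
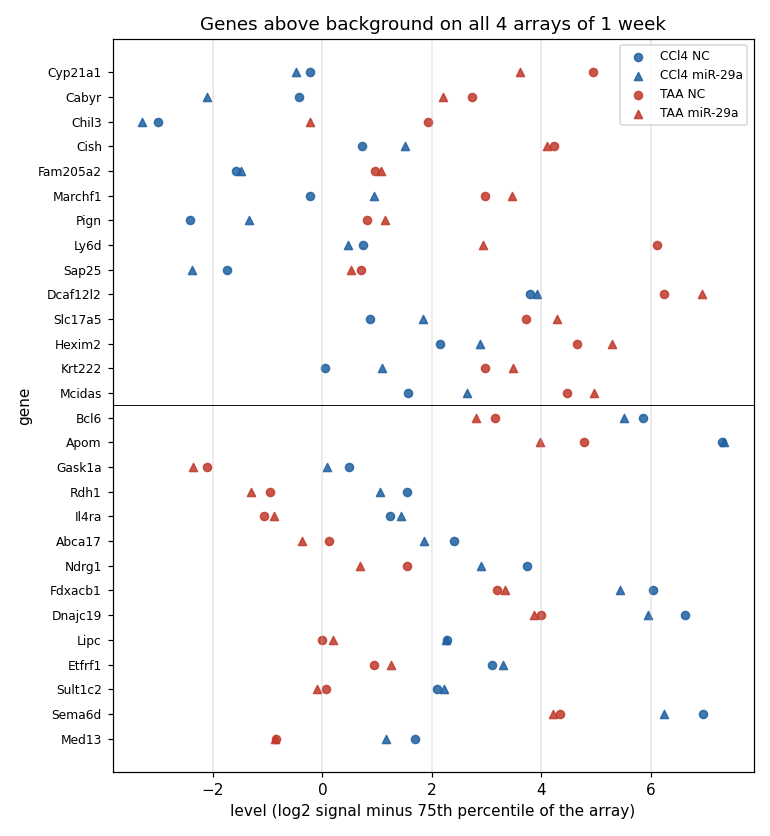
Levels (log2 signal minus the 75th percentile of the array) on the 4 arrays of 1 week for the 14 protein-coding genes with the largest agreeing rise (above the line) and the 14 with the largest agreeing fall (below it), among genes above background on all 4 arrays. Blue is CCl4 and red TAA, circles are NC and triangles miR-29a; red and blue do not overlap for any of the 28 genes, which were selected for that difference.

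Genes of the growth hormone axis moved in both directions. Of 21 measured members of the growth hormone and IGF list, 2 were called higher and 7 lower, beside 12.7% and 22.8% of all features, and the list median was −0.63. Cish, a feedback inhibitor of cytokine receptors induced by STAT5, had levels of 0.73 and 1.52 in CCl4 (NC, miR-29a) and 4.24 and 4.10 in TAA. Both TAA arrays thus lay above both CCl4 arrays, by 3.05 ± 0.45 on average (8.28-fold, adjusted p = 0.00807). Bcl6, a transcriptional repressor that STAT5 keeps low, read 5.87 and 5.51 in CCl4 (NC, miR-29a) and 3.16 and 2.80 in TAA. It fell by nearly the same amount in the NC pair (−2.71) and the miR-29a pair (−2.71), a mean of −2.71 ± 0.31 (adjusted p = 0.0052). Igfals, the serum carrier subunit of the IGF complex, fell, at −1.36 and −1.46 (adjusted p = 0.00499), and Igfbp2, an IGF binding protein, at −2.86 and −1.34 (adjusted p = 0.0409). Cish, Bcl6 and Igfals kept their calls in all 5 scalings and in the fit of the 4 arrays alone, and Igfbp2 did not. Among other genes of the axis, Igf1 read 7.17 and 7.16 in CCl4 (NC, miR-29a) and 6.79 and 6.95 in TAA. Neither Igf1 nor Socs2 was called, and Ghr and Stat5b were called lower, but not in every scaling. At 2 weeks Cish was still higher in TAA by 2.36 in the NC pair and 1.29 in the miR-29a pair, which the fit did not call.

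The 250 bases before each annotated start of Cish and of Bcl6 (RefSeq, GRCm38.p6) are shown because these genes moved in opposite directions. The motif TTCNNNGAA, the STAT palindrome, which reads alike on both strands, is in capitals; it occurs in 7.02% of all 32851 promoter windows of this length. Of the 20 genes of the growth hormone list with a window, 3 have it in at least 1 window. They are Igfals (2 of 3 windows), Bcl6 (2 of 2) and Prlr (1 of 3). A gene with several windows has more room for a match, so this count of genes cannot be set against the 7.02% of windows. A match is a description of these letters, and nothing follows from its absence in the Cish window.
Cish, chr9:107296409-107296658, plus strand: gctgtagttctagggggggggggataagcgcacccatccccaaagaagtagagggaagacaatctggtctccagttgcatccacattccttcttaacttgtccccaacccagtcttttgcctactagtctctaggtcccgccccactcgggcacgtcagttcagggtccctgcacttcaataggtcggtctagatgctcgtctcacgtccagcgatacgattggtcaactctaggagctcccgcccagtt
Bcl6 upstream start, chr16:23988853-23989102, minus strand: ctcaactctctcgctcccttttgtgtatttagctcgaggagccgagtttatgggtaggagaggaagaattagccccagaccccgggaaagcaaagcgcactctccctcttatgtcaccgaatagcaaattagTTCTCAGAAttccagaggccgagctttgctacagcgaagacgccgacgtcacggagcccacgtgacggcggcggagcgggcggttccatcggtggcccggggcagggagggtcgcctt
Bcl6 downstream start, chr16:23981284-23981533, minus strand: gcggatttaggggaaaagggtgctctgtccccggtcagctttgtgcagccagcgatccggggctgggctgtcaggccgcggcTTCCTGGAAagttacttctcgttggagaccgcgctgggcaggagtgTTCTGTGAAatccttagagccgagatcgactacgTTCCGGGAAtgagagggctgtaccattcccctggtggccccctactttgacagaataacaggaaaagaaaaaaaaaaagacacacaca

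All but 1 of the bile acid genes that passed the test were lower in TAA. Of 28 measured members, 11 were called lower and 1 higher, beside 12.7% higher and 22.8% lower among all features. The list median was −0.80 in the NC pair and −0.32 in the miR-29a pair, and the brightest class of features had −0.37 over both pairs. Slco1a1, an uptake transporter of organic anions and bile acids with male-biased expression, had levels of 3.06 and 3.07 in CCl4 (NC, miR-29a) and −2.97 and 0.47 in TAA, with both TAA values below both CCl4 values (mean −4.31 ± 0.88, adjusted p = 0.0187). Cyp8b1, the sterol 12-alpha-hydroxylase that sets the cholic acid share of bile acids, read 2.03 and 2.44 in CCl4 (NC, miR-29a) and −3.13 and −0.53 in TAA (mean −4.07 ± 0.65, adjusted p = 0.00997). For both genes the TAA NC array was the lower of the TAA arrays, and the TAA signal was above background on only 1 of 2 arrays. Klb, the FGF receptor partner that relays ileal FGF15 to the hepatocyte, fell, at −2.12 and −1.57 (adjusted p = 0.0044). Cyp27a1, the first enzyme of the acidic synthesis route, fell, at −1.80 and −1.68 (adjusted p = 0.00536). Nr0b2, the repressor SHP, had differences of −3.41 and −0.86 (adjusted p = 0.0396) and was not called in every scaling. Among the 11 lower calls, 9 held in all 5 scalings and 7 also with the 4 arrays alone. The list's single higher call, singled out after its values were seen, was Slc10a1, the main sinusoidal bile acid importer, at 0.92 and 1.18 (adjusted p = 0.00909); its other probe went the other way.

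Of 21 apolipoprotein and lipoprotein genes, 5 were called lower and 1 higher. The share lower was near the 22.8% of all features, as the list median of −0.10 was near theirs. Apom, an HDL protein that carries sphingosine 1-phosphate, had levels of 7.30 and 7.35 in CCl4 (NC, miR-29a) and 4.79 and 3.97 in TAA, a fall of 7.7-fold (mean −2.95 ± 0.25, adjusted p = 0.00411). Its 2-week levels were 6.44 and 6.17 for CCl4 and 6.93 and 6.97 for TAA. Lipc, hepatic lipase, read 2.27 and 2.26 in CCl4 (NC, miR-29a) and −0.01 and 0.19 in TAA (adjusted p = 0.00411), and Apoa4 and Lcat, the enzyme that esterifies HDL cholesterol, fell, at −2.17 ± 0.35 and −1.45 ± 0.17. Those 4 calls held in all 5 scalings and in the 4-array fit. Among 22 lipid droplet genes 7 were called lower and 1 higher (median −0.61; 22.8% and 12.7% of all features), including G0s2, an inhibitor of lipolysis (−1.94 and −1.73), Bscl2, the seipin of droplet assembly (−1.46 and −1.94), and the droplet coat protein Plin5 (−1.54 and −1.30). Among 37 PPARα targets, 12 were called lower, beside the same 22.8% of all features, and 0 higher (medians −1.14 and −0.53; the brightest class of all features had −0.37). Acot1, a cytosolic acyl-CoA thioesterase, read 4.56 and 4.78 in CCl4 (NC, miR-29a) and 0.48 and 2.94 in TAA (adjusted p = 0.0307). Of these 12 calls, 3 held in all scalings and in the 4-array fit. Cyp4a14, a fatty acid hydroxylase, was at −3.51 in the NC pair and −0.56 in the miR-29a pair and was not called.

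Genes of drug metabolism that passed the test were mostly lower. Of 41 cytochrome P450 genes of xenobiotic metabolism, 12 were called lower and 0 higher, beside 12.7% higher and 22.8% lower among all features. Their medians were −1.16 in the NC pair and −0.32 in the miR-29a pair, with −0.37 in the brightest class of features. Cyp2c38 had levels of 6.44 and 6.31 in CCl4 (NC, miR-29a) and 4.10 and 4.54 in TAA (mean −2.06 ± 0.20, adjusted p = 0.00463) and Cyp2d22 of 5.38 and 5.61 in CCl4 (NC, miR-29a) and 3.08 and 3.80 in TAA (mean −2.05 ± 0.26, adjusted p = 0.00592); members of these families are near-identical, and probes may read several. Cyp2b10, the target of the receptor CAR, was at −2.70 and −0.86 and was not called. Cyp2e1, which activates both agents, read 9.94 and 10.21 in CCl4 (NC, miR-29a) and 9.19 and 9.67 in TAA, a mean of −0.64 ± 0.19 that passed the test (adjusted p = 0.0476) but not in every scaling. Among 41 conjugating enzymes 18 were called lower and 1 higher (median −0.75), but only 6 of the lower calls held in all 5 scalings. Sult1c2, Gstm7 and Ugt3a1 fell, at −2.17 ± 0.16, −1.65 ± 0.27 and −1.55 ± 0.25, and Ugt1a6a rose 2.84-fold (adjusted p = 0.00608). Of 29 antioxidant genes of the NRF2 list, 5 were called lower and 2 higher, below both shares of all features; Gclm, the modifier subunit of glutathione synthesis, fell, at −1.64 and −1.56 (adjusted p = 0.00411), and the glutathione peroxidase Gpx2 rose by 1.41 ± 0.24.

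Both zones of the liver lobule were represented among the lower genes. Around the central vein 8 of 24 genes were called lower and 0 higher (median −0.61), and around the portal tract 7 of 25 and 0 (median −0.47), beside 22.8% of all features and a median of −0.37 in their brightest class. Slc1a4, a neutral amino acid transporter, fell, at −2.44 and −1.81, and Axin2, a target of Wnt signalling, at −1.25 and −1.45, with TAA above background on 1 of 2 arrays. On the periportal side Cps1, the first enzyme of the urea cycle, read 6.47 and 6.17 in CCl4 (NC, miR-29a) and 5.10 and 5.11 in TAA (adjusted p = 0.00583) and Fbp1 of gluconeogenesis 9.67 and 9.73 in CCl4 (NC, miR-29a) and 8.45 and 8.57 in TAA (adjusted p = 0.00512). In bulk tissue, fewer cells of a type and less RNA per cell cannot be told apart.

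Of 44 genes of the respiratory chain, 17 were called lower, beside 22.8% of all features, and 0 higher. In both pairs 38 were lower, beside 47.4% of all features, with a median of −0.65 beside −0.37 in the brightest class of features. Ndufa10, a complex I subunit, read 4.66 and 4.68 in CCl4 (NC, miR-29a) and 2.97 and 3.27 in TAA (mean −1.55 ± 0.19, adjusted p = 0.00556), and Sdhd of complex II 7.30 and 7.54 in CCl4 (NC, miR-29a) and 5.82 and 6.09 in TAA (adjusted p = 0.00532). Of the 17 calls, 6 held in all 5 scalings. In the iron and haem list, 7 of 27 genes were called lower, close to the share of all features, and 1 higher (median −0.37). They included Bmp6, the iron-sensing ligand of endothelial cells, which was not above background in TAA and fell by at least 3.24-fold, and its co-receptor Hjv (−1.11 and −1.80).

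Stress response lists held calls in both directions. Of 27 chaperones of the endoplasmic reticulum, 7 were called lower, again near the share of all features, and 1 higher: Dnajb9, an HSP70 co-chaperone, fell, at −2.03 and −1.82, and Derl3, of protein dislocation, rose by 1.57 and 3.81. In the ATF4 list of 24, 4 were lower and 3 higher, no more than the 22.8% and 12.7% of all features. Asns, asparagine synthetase, rose by 3.07 and 1.42 (adjusted p = 0.033) and Chac1, a glutathione-degrading enzyme, by 1.29 and 1.74, whereas the pseudokinase Trib3 fell, at −3.40 and −1.55 (adjusted p = 0.0151). Among 25 p53 targets 7 were higher, above the 12.7% of all features, and 4 lower. Plk3, a stress kinase, had levels of 2.82 and 2.01 in CCl4 (NC, miR-29a) and 4.66 and 4.79 in TAA (adjusted p = 0.0112), and the cell cycle inhibitor Cdkn1a of −2.32 and −3.42 in CCl4 (NC, miR-29a) and −0.52 and −1.53 in TAA (adjusted p = 0.00638). The death receptor Tnfrsf10b and Phlda3 rose by 1.40 ± 0.24 and 1.34 ± 0.24, and Ei24 fell, at −1.65 ± 0.15.

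Most proliferation and fetal liver genes that passed the test were higher in TAA. Of 31 measured genes of mitosis and replication, 10 were called higher, beside 12.7% of all features, and 1 lower, with medians of 0.88 in the NC pair and 0.35 in the miR-29a pair. Uhrf1, which maintains DNA methylation at replication, had levels of −2.45 and −2.72 in CCl4 (NC, miR-29a) and 0.47 and −0.79 in TAA (mean 2.42 ± 0.44, adjusted p = 0.0132). Ccna2, a cyclin, rose by 2.80 and 1.02, Plk1, a mitotic kinase, by 2.38 and 1.38, and the proliferation marker Mki67 by 2.29 and 1.46 (adjusted p = 0.0247, 0.0234 and 0.00841). With the array median as reference, the list's median was 0.00; 5 of the 10 higher calls held in all 5 scalings. At 2 weeks the same genes were also higher in TAA on average, by 1.59, 2.01, 2.89 and 1.86 for Uhrf1, Ccna2, Plk1 and Mki67, although the fit called no feature there. Over the whole list the median of the mean differences was 0.59 at 1 week and 1.13 at 2 weeks. The lower call, Pcna, the sliding clamp of DNA replication, was chosen after its value was seen: −0.84 and −1.08. Of 16 fetal and progenitor genes, 6 were called higher, beside 12.7% of all features, and 0 lower. The 6 include H19, which passed the filter only through TAA. Ly6d, a surface protein, read 0.74 and 0.47 in CCl4 (NC, miR-29a) and 6.11 and 2.93 in TAA (adjusted p = 0.0184), and the imprinted RNA H19, silenced after birth, was above background on neither CCl4 array and was at least 6.75-fold higher in TAA. Meg3, another imprinted RNA, was higher by 3.39 and 2.35 (1 other probe was read for each of these RNAs), and the desaturase Scd2 by 3.59 and 2.14 (adjusted p = 0.0144). On the 4 arrays of 2 weeks Meg3 read from 2.09 to 2.41, above both CCl4 and below both TAA arrays of 1 week.

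Inflammatory genes divided the pairs, and their high values lay on the TAA NC array. Lcn2, an iron-binding acute-phase protein, had levels of 1.39 and 0.79 in CCl4 (NC, miR-29a) and 10.05 and 1.44 in TAA, so that 1 array alone was high and the gene was not called. Saa1, serum amyloid A, read 5.34 and 4.79 in CCl4 (NC, miR-29a) and 10.99 and 5.70 in TAA. S100a9, a neutrophil calcium-binding protein, read 2.39 and 2.06 in CCl4 (NC, miR-29a) and 7.90 and 1.42 in TAA, and Marco, a scavenger receptor of Kupffer cells, read 3.11 and 3.61 in CCl4 (NC, miR-29a) and 6.49 and 3.02 in TAA. Over the lists, the neutrophil medians were 3.28 in the NC pair and −0.63 in the miR-29a pair, Kupffer cells 1.75 and −0.59, acute phase 1.07 and −0.06. None of 13 Kupffer cell markers was called by limma (1 at an unadjusted p under 0.05), and 1 of 26 acute-phase genes was called in each direction. The log2 of the mean signal of the neutrophil genes was 3.71 and 3.75 on the CCl4 arrays, and 6.02 and 4.56 on TAA NC and TAA miR-29a. On every array but TAA NC, most of that signal was 1 gene, Csf3r. It read 6.31 and 6.36 in CCl4 (NC, miR-29a) and 7.01 and 7.30 in TAA. Of genes called higher, Chil3 and Itgam, an integrin of myeloid cells, belonged to the macrophage list. Of its 24 members 4 were called higher, near the 12.7% of all features, and 2 lower. Its medians were 0.76 in the NC pair and −0.18 in the miR-29a pair. Itgam read 1.65 and 2.65 in CCl4 (NC, miR-29a) and 4.29 and 4.81 in TAA (adjusted p = 0.0073), and 1 other probe had the same sign. Mcidas, a gene outside this list, had similar levels, 1.57 and 2.65 in CCl4 and 4.46 and 4.96 in TAA. Whether the Itgam probe reads Itgam alone was not tested. Gpnmb, a marker of lipid-laden macrophages, was above background on both CCl4 arrays and neither TAA array: −0.42 and −0.21 in CCl4 (NC, miR-29a) and −2.98 and −3.95 in TAA, at least 8.3-fold lower in TAA. Of 15 T and NK cell genes 6 were higher, beside 12.7% of all features, and 0 lower. The 6 include the coreceptor chain Cd8b1, which passed the filter only through TAA. Cd8b1 was not well above background in CCl4 and rose by at least 2.93-fold, and Il2rb, a cytokine receptor, by 1.66 and 2.24. The log2 of the mean signal of this list (1.82 and 1.89 in CCl4, 1.5 and 1.83 in TAA) was not higher in TAA. Most of that signal was 1 gene, Cd4, at 5.37 and 5.42 in CCl4 (NC, miR-29a) and 4.54 and 5.17 in TAA. In both pairs 9 of the 15 were higher and 2 lower, beside 30.1% and 47.4% of all features. In the interferon list 3 of 26 were higher and 1 lower, below both shares of all features, with Oas2, an antiviral RNA sensor, at 2.61 and 2.26 (adjusted p = 0.00698).

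Fibrillar collagens did not pass the test, and stellate cell genes passed it about as often as all features. None of 7 measured fibrillar collagen genes was called by limma (1 at an unadjusted p under 0.05), and their median was −0.68 in the NC pair and 0.29 in the miR-29a pair. Col1a1, of the main fibrillar collagen, read 2.80 and 1.41 in CCl4 (NC, miR-29a) and 1.46 and 1.71 in TAA, with differences of −1.34 and 0.29 (adjusted p = 0.371). Acta2, the smooth muscle actin of activated stellate cells, was at −0.15 and −1.43 (adjusted p = 0.136) and Timp1, an inhibitor of matrix metalloproteinases, at 0.62 and 0.26 (adjusted p = 0.702). The activated stellate list had 2 of 19 higher and 4 lower, with Tpm2 at −0.98 and −1.94 among the latter. Mmp2, a gelatinase of stellate cells, fell, at −2.08 and −1.59 (adjusted p = 0.00492; TAA above background on 1 of 2 arrays), and Ogn, a matrix proteoglycan, at −2.30 and −1.45 (adjusted p = 0.0103). Of 26 endothelial genes, 4 were called lower and 0 higher, below the 22.8% and 12.7% of all features. The mesothelial list had a median of −1.44 over 10 genes and 1 call. In both pairs 7 of the 10 were lower and 1 higher, beside 47.4% and 30.1% of all features. The log2 of the list's mean signal was 4.81 and 4.39 in CCl4 (NC, miR-29a) and 5.33 and 4.77 in TAA. Most of that signal was 1 gene, the keratin Krt18, at 7.91 and 7.65 in CCl4 and 8.56 and 8.07 in TAA. Another member, Msln, mesothelin, read 3.28 and 0.34 in CCl4 (NC, miR-29a) and 0.81 and −0.22 in TAA. Of 8 exocrine pancreas markers only 3 were measured, and Cpa1, Prss1, Prss2, Pnlip and Cela2a were not. Amy2a5, an amylase, read 3.75 and 3.58 in CCl4 (NC, miR-29a) and 1.49 and 2.18 in TAA (adjusted p = 0.00753). The other measured markers were dimmer in CCl4, Ctrb1 at 0.88 and 1.46 and Cela1 at −2.99 and −3.05. The log2 of the mean signal of the 3, set mostly by Amy2a5, was 2.36 and 2.31 in CCl4 and 0.29 and 0.85 in TAA. Whether any of this signal came from pancreas was not tested. The part of either cell type in other differences was not tested.

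In the clock list, 3 of 20 genes were called lower and 1 higher, below the 22.8% and 12.7% of all features. Nr1d1, the repressor REV-ERBα, fell, at −2.13 and −1.72 (adjusted p = 0.00475), Arntl, which encodes the clock activator BMAL1, at −3.35 and −1.22, and Usp2 rose by 2.06 and 1.11. The time of sacrifice is not among the labels. Of 26 male-predominant genes, 6 were called lower, near the share of all features, and 0 higher, with medians of −0.87 in the NC pair and 0.13 in the miR-29a pair; Hsd11b1, which regenerates active glucocorticoid, fell, at −1.59 and −1.89 (adjusted p = 0.00403), while Hsd3b5, a male-specific steroid dehydrogenase, was low only on TAA NC (3.69 and 5.16 in CCl4 (NC, miR-29a) and −2.19 and 5.71 in TAA). Of 19 female-predominant genes, 6 were lower, above the 22.8% of all features, and 2 higher. Sult1e1, the estrogen sulfotransferase, was above background on neither CCl4 array and read −3.75 and −3.89 in CCl4 (NC, miR-29a) and 3.07 and −1.20 in TAA, at least 21.7-fold higher in TAA.

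**Figure D4:**
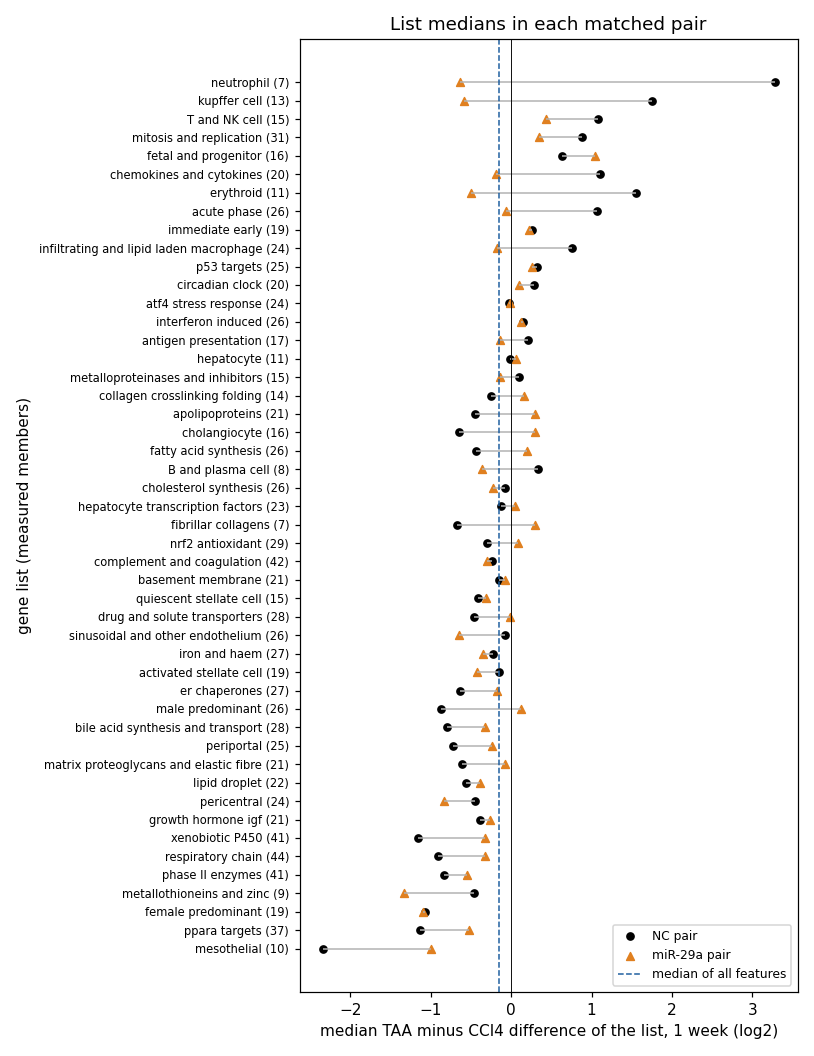
Median TAA minus CCl4 difference (log2) of each gene list with at least 5 measured members, in the NC pair (circles) and the miR-29a pair (triangles), with the number of measured members in brackets and the median of all features as a dashed line. PPARα targets, P450 genes and phase II enzymes lie below 0 in both pairs, mitosis and fetal genes above 0 in both, and the neutrophil and Kupffer lists lie on opposite sides.

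Comparing the weeks, the median absolute difference between agents was 0.49 log2 at 1 week and 0.21 at 2 weeks, and limma called 0 features at 2 weeks in either direction, with 647 higher and 1446 lower at an unadjusted p under 0.05. The agent difference changed between weeks for 1891 features (10.1%) by the interaction test, with a smallest adjusted p of 0.0256; without CCl4 NC or without CCl4 miR-29a at 1 week, 0 features passed (4668 and 3986 at an unadjusted p under 0.05, 5683 with all arrays). Of 2444 features 2-fold apart in both 1-week pairs, 1266 had the same sign in both 2-week pairs and 68 were again 2-fold apart in both. Bcl6 was at −0.86 at 2 weeks, Slco1a1 at −0.70 and Cyp8b1 at −0.43, against −2.71, −4.31 and −4.07 at 1 week. Crat, carnitine acetyltransferase, was below background in TAA at 1 week (at least 2.14-fold lower) and stood at 0.85 at 2 weeks. Pon2, an antioxidant lactonase measured on all 4 arrays of 1 week, was at −2.19 at 1 week and 0.55 at 2 weeks (interaction adjusted p = 0.0256; another Pon2 probe had the opposite sign). Among all features, 63.1% had the same sign at both weeks, and 69.3% of those called at 1 week.

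**Figure D5:**
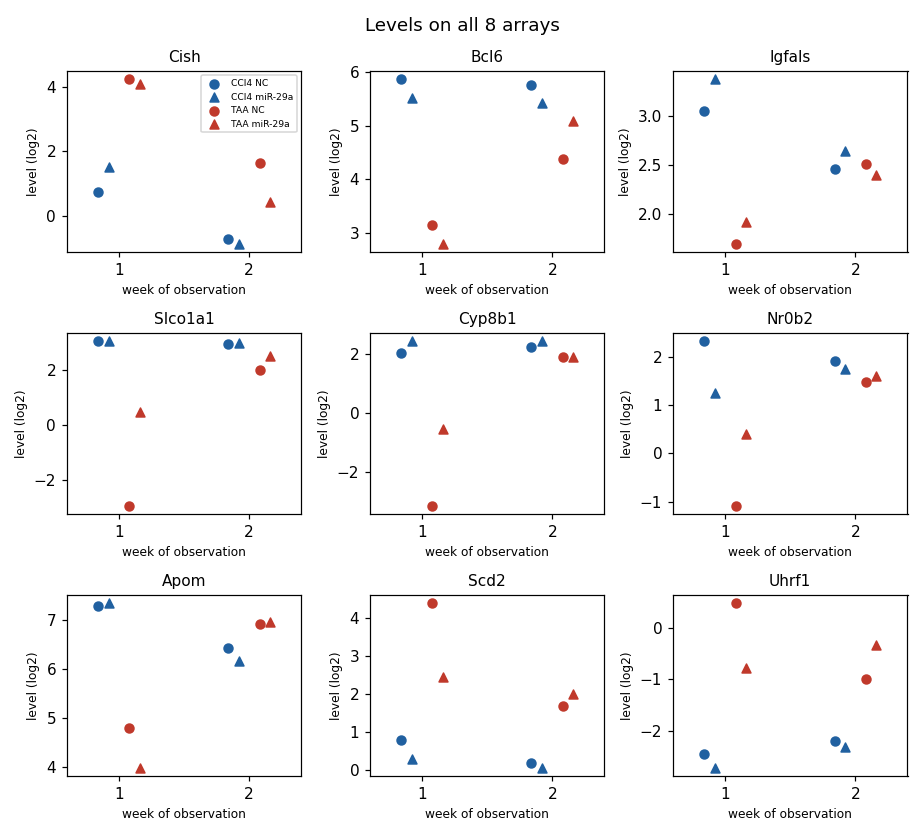
Levels (log2 signal minus the 75th percentile of the array) of 9 genes on all 8 arrays, by week of observation; blue is CCl4, red TAA, circles NC and triangles miR-29a. The 9 were chosen among genes called at 1 week, so the agents are separate for all of them at that week. Among all features both TAA levels lay above both CCl4 levels for 25.7% and below both for 42.6%. At 2 weeks the TAA values of Slco1a1, Cyp8b1 and Bcl6 lie closer to CCl4.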

How the data were processed

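RNA of 8 liver samples of male mice was measured on 1-colour Agilent arrays. The deposited intensity of each spot, and the other values used, 0 or 1 flags (well above background, outlier, saturated), came from Feature Extraction 10.10.1.1, per the file headers. The deposited matrix of log2 values equalled the log2 processed signal minus 1 constant per array and served as an alternative. Levels used here are log2 processed signal minus the 75th percentile of the array; control and outlier spots were left out and spots of a probe averaged. Gene names come from RefSeq (GRCm38.p6), probe coordinates being mm9 in the files.

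Limma 3.58.1 in R 4.3.3 (with data.table, version 1.17.8) fitted agent, week, their interaction and oligonucleotide to all 8 arrays, with 3 residual degrees of freedom; the 1-week estimate is the mean of the 2 matched differences, and errors are its SE. P-values were Benjamini-Hochberg adjusted over 18721 features and called under 0.05. Where a group was below background on both arrays, a fold is a bound against the lowest signal well above background. Alternatives were the background correction (normexp, offset 50), scaling, filter, probe summary, model and leaving out each array.

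The text names, in each direction, genes among the 14 with the largest smaller-of-2 matched differences among called protein-coding genes; up to 5 members of each of 47 lists by mean difference; 5 genes of opposite sign; 5 per direction for agent by week; and Cyp2e1, Col1a1, Acta2, Timp1 and Alb. Members and lists were chosen with earlier results of these data known.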

Additional observations from a re-analysis of the deposited data

Results flagged for a closer look

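For 18 lists the median TAA minus CCl4 difference had opposite signs in the NC and miR-29a pairs; this difference was not tested, since each pair is 1 array against 1. The NC median minus the miR-29a median was 0.24 for metalloproteinases and inhibitors, 2.34 for Kupffer cell, 0.94 for infiltrating and lipid laden macrophage, 3.91 for neutrophil, 0.70 for B and plasma cell, 2.06 for erythroid, 1.12 for acute phase, 1.29 for chemokines and cytokines and 0.34 for antigen presentation. It was below 0 for the others: −0.97 for fibrillar collagens, −0.41 for collagen crosslinking folding, −0.95 for cholangiocyte, −0.39 for NRF2 antioxidant, −0.18 for hepatocyte transcription factors, −0.63 for fatty acid synthesis, −0.75 for apolipoproteins, −1.003 for male predominant and −0.074 for hepatocyte. The gap was widest for the neutrophil list, where the TAA NC array was the highest.

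Among single protein-coding genes of opposite sign, the NC difference minus the miR-29a difference was −8.71 for Myh8, −8.15 for Myh4, 7.28 for Mt1, 9.07 for Mt2, 6.47 for Cnn1. Myh8 and Myh4 are skeletal muscle myosins, Mt1 and Mt2 metallothioneins and Cnn1 a smooth muscle protein. Myh8, Myh4 and Cnn1 were above background on only 1 of the 2 arrays of each agent, so their values are set against signals at background and are no sizes of change. These differences between pairs were not tested either.

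The difference between agents changed from 1 to 2 weeks for 1891 features by the limma interaction test. For the named genes, the 1-week minus 2-week difference was 3.61 for Catsper1, 4.66 for Gabra4, 3.68 for Ccdc40, 3.02 for Elavl2, 3.25 for Slc17a7, −2.74 for Pon2, −4.34 for Nt5dc2, −2.91 for Tmem204, −2.30 for Mrpl37, −3.40 for Crat. At 1 week the first 5 of these genes were above background on neither CCl4 array, and Nt5dc2 and Crat on neither TAA array; these 7 passed the filter only through the other agent, and their values rest on signals at background. Pon2, Tmem204 and Mrpl37 were above background on all 4 arrays (adjusted p = 0.0256 for each by limma's interaction test).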

How the results depend on the processing

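Of the calls in the main fit, limma gave 0 reversed directions for the named genes in any alternative. Other settings moved counts by over 1.5 times. The 4 arrays of 1 week alone gave 1251 features higher and 1264 lower. Normexp background correction gave 459 features 2-fold higher and 782 lower in both pairs, and 3493 interaction calls. The array median in place of the 75th percentile, which moved the median of all features from −0.16 to −0.75, gave 1193 higher and 10698 lower (10% of calls higher, against 35.7%), 668 and 4705 for the 2-fold counts and 3395 interaction calls. Quantile normalization put 43.9% of calls on the higher side and centring within 20 bins of level, chosen after seeing the data, 51.7%. No filter on dim probes gave 2163 lower calls, 2115 features 2-fold higher and 0 interaction calls by limma (5959 at an unadjusted p under 0.05), with 45% of calls higher. Requiring signal above background on all 4 arrays gave 761 features 2-fold higher. TAA against the 6 other arrays, also chosen after seeing the data, gave 651 higher and 1493 lower. Leaving out 1 array gave 847 to 2542 higher, 887 to 4915 lower and 0 to 2324 interaction calls; the lowest counts came without CCl4 miR-29a. A 1.5-fold threshold in both pairs gave 2189 and 3201 features, 4-fold 422 and 79; the NC pair alone gave 2173 and 2265, the miR-29a pair alone 2048 and 2177. The labels give no replicate numbers. Arrays were matched by the oligonucleotide alone, which is a term of the fit. With 1 array per combination, precision is limited and dim probes carry the least.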
